A study of Mus musculus with 8 samples.

Results

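The 10 genes described here regulate the size of muscle fibres: 6 genes for muscle ubiquitin ligases (Trim63, Trim55, Fbxo32, Fbxo30, Asb2 and Cblb), the transcription factor genes Foxo1 and Foxo3, and the growth regulator genes Mstn and Igfbp5. They were chosen by name from the 19857 genes of a deposited count table. Tongues of 4 female A17/+ mice, which carry the A17 allele of Pabpn1 (PABPN1A17/+ in the labels) beside 1 normal copy, were compared with tongues of 4 female wild type (WT) mice, and all mice were 12 months old. The series concerns a mouse model of oculopharyngeal muscular dystrophy, an inherited disease in which the muscles of the eyelids, throat and tongue weaken late in life. The strain and how the allele was made are not given in the sources used here. Each library was made from total RNA of 40 frozen sections of 1 tongue, cut at its midpoint, and was sequenced by mcSCRB-seq, which primes on poly(A) tails and counts each captured molecule once by its unique molecular identifier (UMI).

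Ubiquitin is a small protein that marks other proteins for the proteasome. An activating enzyme loads it, a conjugating enzyme carries it, and a ubiquitin ligase picks the protein to be marked. Skeletal muscle makes its own set of ligases, among which MuRF1 (Trim63) and atrogin-1 (Fbxo32) are the classical markers of wasting. FOXO transcription factors switch both genes on when they enter the nucleus. Insulin-like growth factors keep FOXO out of the nucleus through the kinase AKT, and myostatin lowers AKT activity through activin receptors.

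Because FOXO factors recognise a short DNA word, the stretch from 250 bases before to 50 bases after the start of each gene was searched for GTAAACA on both strands in RefSeq sequences of GRCm38.p6, the assembly also called mm10. A promoter was found for 8 of the 10 genes, and Fbxo32 and Trim55 had no entry. Among the 8, only Trim63 held the word, at position −194 from its start and on the opposite strand. The strand printed below reads TGTTTAC there. Of 32851 mouse promoters in the same table, 3.65% held it on either strand. The Trim63 promoter (chr4:134314870-134315169, plus strand) and the Igfbp5 promoter (chr1:72874816-72875115, minus strand) are shown because these are the genes that differed between the genotypes, with the FOXO word in capitals.
Trim63: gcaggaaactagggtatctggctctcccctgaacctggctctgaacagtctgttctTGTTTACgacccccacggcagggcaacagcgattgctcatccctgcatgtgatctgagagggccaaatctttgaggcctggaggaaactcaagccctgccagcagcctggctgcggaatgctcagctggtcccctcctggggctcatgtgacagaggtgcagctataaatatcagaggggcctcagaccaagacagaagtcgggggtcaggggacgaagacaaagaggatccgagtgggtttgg
Igfbp5: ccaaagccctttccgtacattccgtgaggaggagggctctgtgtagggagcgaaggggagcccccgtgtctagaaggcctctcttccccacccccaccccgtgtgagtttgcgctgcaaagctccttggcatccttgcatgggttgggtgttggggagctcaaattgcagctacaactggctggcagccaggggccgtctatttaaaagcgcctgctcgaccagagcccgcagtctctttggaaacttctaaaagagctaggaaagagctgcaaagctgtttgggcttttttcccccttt
The word ACANNNTGT, the core of a glucocorticoid receptor site, was searched in the same way and is its own reverse complement. Of the 8 genes, Trim63 alone held it, at position −206, as did 6.85% of all promoters. A match is only a match of letters and shows no binding.

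The A17/+ libraries held 395061 to 485326 UMIs and the WT libraries 205696 to 465014, and the smallest library was WT 4. Levels are CPM, the counts scaled to a common total of the UMIs in the genes tested, scaled by TMM, a method that evens out differences in RNA composition. Changes are log2 fold changes, A17/+ minus WT, from edgeR's quasi-likelihood test with the Benjamini-Hochberg adjustment over all genes tested, and an adjusted p under 0.05 counts as passing. The spread measured is that between the mice of a group. All 20 skeletal myofibre markers and all 20 tongue epithelium markers were detected, so that both tissues were present in the samples. WT 1 stood apart with 926 counts of lingual salivary gland markers, against at most 21 in any other library. On the first principal component, with 50.2% of the variance, WT 1 and A17/+ 1 were the libraries nearest to the other genotype. In whole tissue, fewer cells of a type and less RNA per cell cannot be told apart.

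Of the 10 genes, 8 had enough counts to be tested, and 2 of these, Trim63 and Igfbp5, rose in A17/+ tongue. With edgeR 0 of the 8 fell, at an adjusted or an unadjusted p under 0.05, and likewise 0 with DESeq2 and with limma-voom. Over all 5066 genes tested, 321 rose and 132 fell, so that the share called was 6.34% higher, 2.61% lower and 8.94% in either direction. An unadjusted p under 0.05 was held by 25.1% of all genes tested and by 2 of the 8 genes (25%). Scaling by library totals alone split the calls into 279 and 289. With libraries scaled to the summed myofibre markers it was 208 and 469, and with a transcript length trend removed it was 248 and 257. All 8 log2 fold changes were above 0, as were 50.5% over all genes, although 4 of the 8 turned negative under another scaling or fit. The median was 0.31 over the 8 genes and 0.01 over all genes tested. For the genes described here it was 0.19 with library totals, 0.03 with myofibre scaling, 0.20 with the length trend removed and 0.15 with an epithelium covariate. It was 0.06 without A17/+ 4, 0.18 without A17/+ 3 and 0.17 without WT 2. A count of 2 genes is too small to be read against this background.

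**Figure D1:**
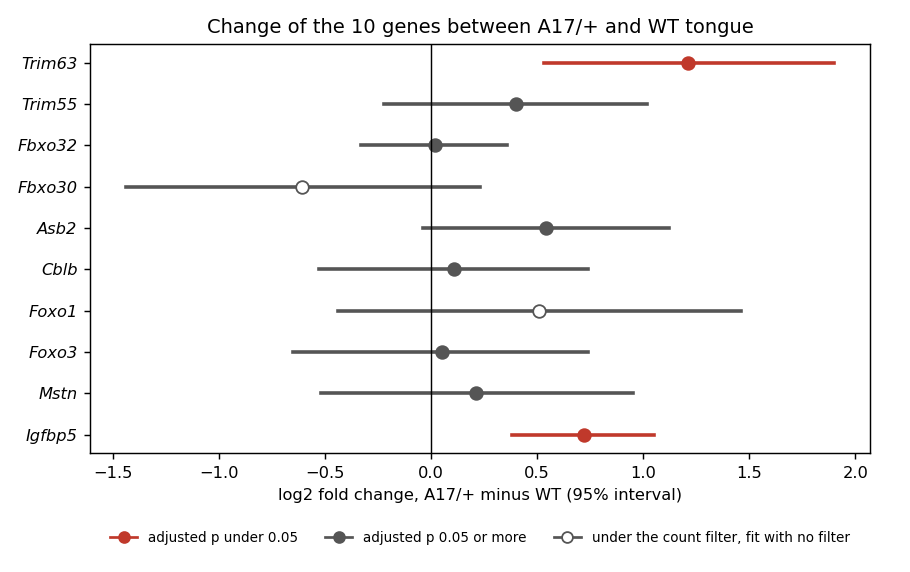
Log2 fold change (A17/+ minus WT) of the 10 genes, with the 95% interval as a line. Trim63 at 1.21 and Igfbp5 at 0.72 (red) have intervals above 0, the other tested genes (grey) have intervals that include 0, and Fbxo30 and Foxo1 (open) come from a fit with no filter on low counts.

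Trim63 (ENSMUSG00000028834, mm10 chromosome 4, 134315120 to 134329629, plus strand), which encodes the sarcomere-bound ligase MuRF1, showed the larger of the 2 rises. It had 73.6, 113, 84.8 and 99.8 CPM in A17/+ 1 to 4, against 55.7, 12.9, 44.0 and 43.3 CPM in WT 1 to 4. All 4 A17/+ libraries lay above all 4 WT libraries, and the nearest values were those of the 2 libraries numbered 1. Over all genes tested, 8.57% had their A17/+ values all above the WT values and 6.08% all below. The level averaged 92.8 ± 17.2 CPM in A17/+ and 39.0 ± 18.3 CPM in WT (SD, n = 4 each). This is a 2.32-fold rise (log2 fold change 1.21, SE 0.32, 95% interval 1.44-fold to 3.72-fold, adjusted p = 0.0260 by edgeR).

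The rise rests on few molecules: 138 counts in the A17/+ group and 50 in the WT group, of which WT 2 held 4. The exact Poisson 95% interval of those 4 counts, which covers counting error only, is 1.09 to 10.2. Without WT 2 the log2 fold change was 0.87 and the adjusted p 0.0740. The adjusted p was also over the threshold without WT 3 (0.0703), WT 4 (0.0593), A17/+ 3 (0.0596) and A17/+ 4 (0.0785), and under it without WT 1 (0.0127), A17/+ 1 (0.0134) and A17/+ 2 (0.0457).

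Trim55 (chromosome 3, 19644474 to 19692421, plus strand) encodes MuRF2, the closest relative of MuRF1, which also binds the sarcomere. It had 82.5, 56.5, 53.7 and 74.1 CPM in A17/+ 1 to 4, against 64.6, 32.3, 37.2 and 70.4 CPM in WT 1 to 4. The groups overlapped, with libraries 1 and 4 highest in both. The log2 fold change was 0.40 (SE 0.29, interval −0.22 to 1.02, adjusted p = 0.422 by edgeR), with an upper bound of 2.03-fold.

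Fbxo32 (chromosome 15, 58175879 to 58214932, minus strand), which encodes the F-box protein atrogin-1, was the best measured of the ligases. It had 903, 717, 644 and 630 CPM in A17/+ 1 to 4, against 698, 595, 782 and 796 CPM in WT 1 to 4. The highest value was that of A17/+ 1, and the other 3 A17/+ values lay within the WT range. The means were 724 ± 126 CPM in A17/+ and 718 ± 92.8 CPM in WT (SD, n = 4 each). The log2 fold change of 0.02 had an interval from 0.797-fold to 1.28-fold (adjusted p = 0.964 by edgeR), which leaves out a change of the size seen for Trim63.

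The ratio of Trim63 to Fbxo32 within a library puts these wasting markers side by side. On the log2 scale of CPM + 1 it was −3.60, −2.66, −2.91 and −2.65 in A17/+ 1 to 4, against −3.62, −5.42, −4.12 and −4.17 in WT 1 to 4. All A17/+ ratios were above all WT ratios, but A17/+ 1 and WT 1 differed by only 0.02. The difference of the means was 1.38, with a two-sided exact permutation p of 0.0286, the smallest that 4 against 4 libraries allow. Over the 3 ratios compared, the adjusted value was 0.0857. With a pseudocount of 10 CPM the difference was 1.15 and the exact permutation p 0.0571. The p was also 0.0571 without any 1 of the libraries other than WT 1, and 0.0286 without WT 1.

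The ratio of Trim63 to Trim55 was 0.95 higher in A17/+ on the same scale (exact permutation p = 0.0571, adjusted 0.0857), and the groups overlapped. The test of a difference between the changes of these relatives did not pass.

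**Figure D2:**
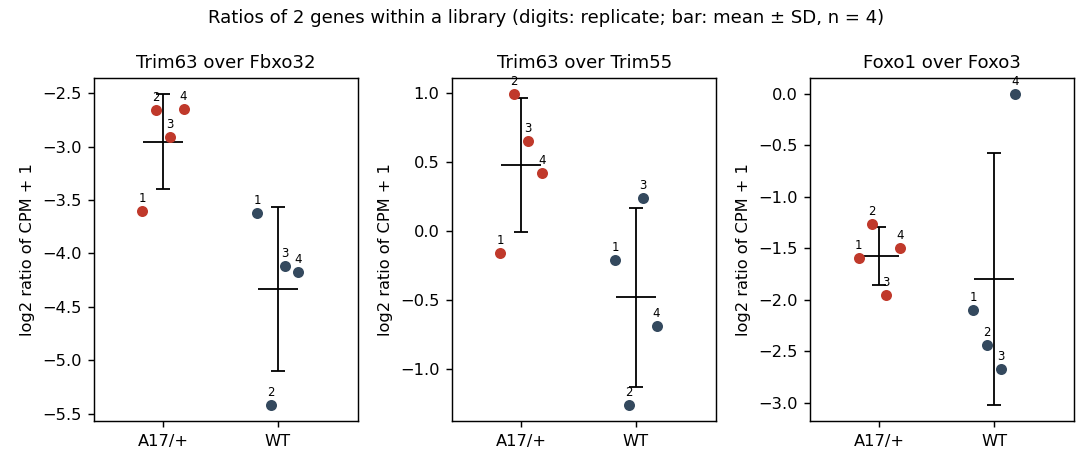
Log2 ratios of CPM + 1 of 2 genes within a library, by genotype, with the mean ± SD (n = 4) as bars and replicate numbers beside the points. The ratio of Trim63 to Fbxo32 is separated by genotype with A17/+ 1 and WT 1 almost level, while the ratio of Foxo1 to Foxo3 overlaps and has WT 4 far above the other WT libraries.

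Fbxo30 (chromosome 10, 11281330 to 11298052, plus strand) encodes another F-box ligase of wasting muscle, known as MUSA1, and was below the filter. It had 17.8, 22.6, 17 and 28.5 CPM in A17/+ 1 to 4, against 40.1, 38.8, 27.1 and 10.8 CPM in WT 1 to 4. All A17/+ values lay within the WT range, and WT 4, with 2 counts, was lowest of all. The mean log2 difference was −0.30 (exact permutation p = 0.514). It was −0.70 without WT 4 (exact permutation p = 0.0857), −0.10 without WT 1, −0.12 without WT 2 and −0.20 without A17/+ 3. In the edgeR fit with no filter it was −0.61 (interval 0.369-fold to 1.17-fold, adjusted p = 0.581).

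Asb2 (chromosome 12, 103321142 to 103356001, minus strand) encodes the substrate-binding part of a cullin ligase whose excess shrinks mouse muscle. It had 82.5, 98.8, 127 and 82.7 CPM in A17/+ 1 to 4, against 62.4, 38.8, 81.2 and 92.1 CPM in WT 1 to 4. A17/+ 2 and 3 lay above every WT library and WT 1 to 3 below every A17/+ library, while WT 4 lay among the A17/+ values. The log2 fold change was 0.54 (SE 0.27, interval −0.04 to 1.12, adjusted p = 0.229 by edgeR).

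Cblb (chromosome 16, 52031225 to 52208048, plus strand) encodes a ligase that removes the insulin receptor substrate in unloaded muscle. It ranged from 53.7 to 79.8 CPM in A17/+ and from 33.8 to 86.7 CPM in WT. The A17/+ range lay inside the WT range, and the log2 fold change was 0.11 (interval −0.53 to 0.74, adjusted p = 0.866 by edgeR).

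**Figure D3:**
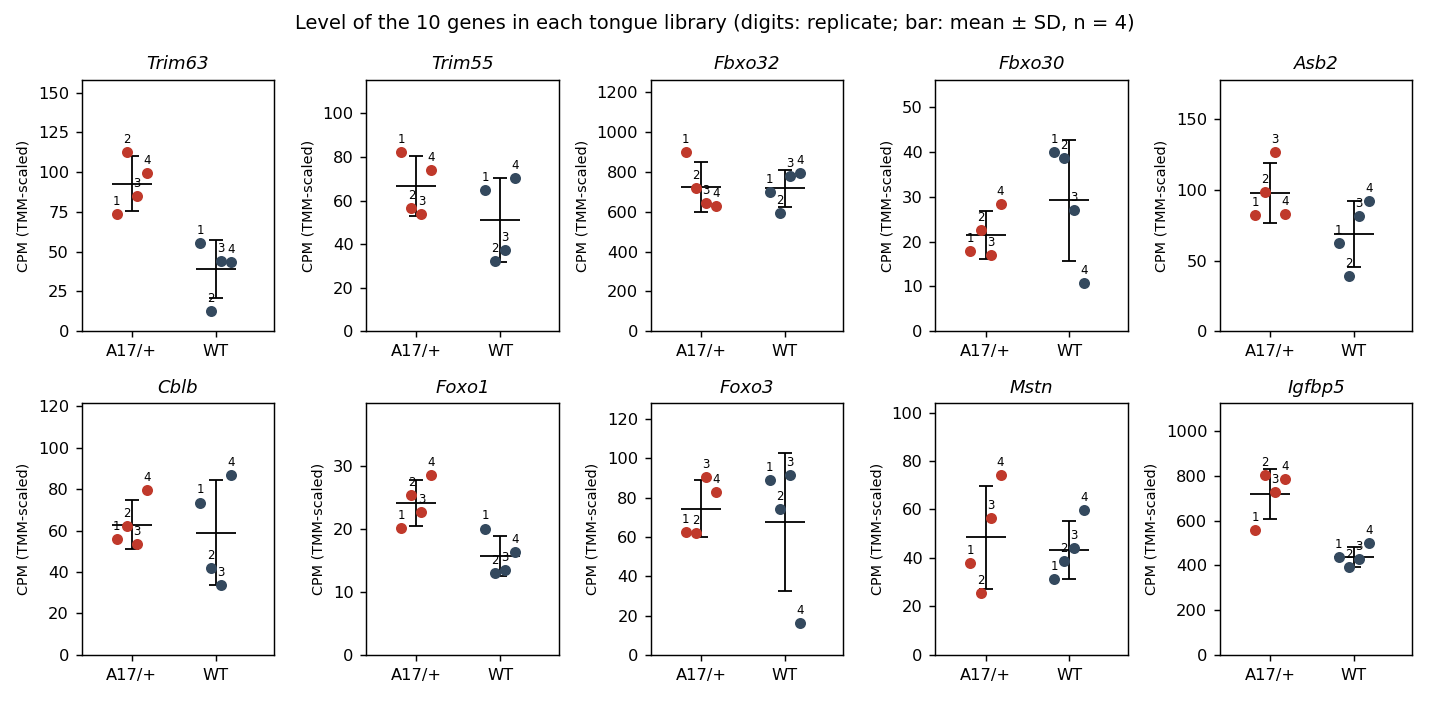
Level of each of the 10 genes in TMM-scaled CPM, with 1 point per library and its replicate number, and bars for the mean ± SD (n = 4). A17/+ and WT points are apart for Trim63 and Igfbp5, level at their closest point for Foxo1, and mixed for the other 7 genes.

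Foxo1 (chromosome 3, 52268336 to 52353221, plus strand), a FOXO factor that rises in fasted and wasting muscle, was also below the filter, with 36 counts in A17/+ and 20 in WT. It had 20.1, 25.4, 22.6 and 28.5 CPM in A17/+ 1 to 4, against 20.1, 12.9, 13.5 and 16.3 CPM in WT 1 to 4. A17/+ 1 and WT 1 both had 9 counts and were level. The mean log2 difference was 0.60, and its exact permutation p of 0.0286 depends on a difference between A17/+ 1 and WT 1 that is smaller than the digits printed. In the edgeR fit with no filter the change was 0.51 (interval 0.738-fold to 2.76-fold, adjusted p = 0.594). The p was 0.0571 without A17/+ 1, 2, 3 or 4 or WT 2 or 3.

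Foxo3 (chromosome 10, 42181841 to 42276755, minus strand), the FOXO factor that can by itself drive wasting of mouse fibres, had 62.4, 62.1, 90.4 and 82.7 CPM in A17/+ 1 to 4, against 89.1, 74.3, 91.4 and 16.3 CPM in WT 1 to 4. WT 4 had 3 counts and lay below every other library, and the other WT values overlapped with A17/+. The log2 fold change was 0.05 (interval 0.638-fold to 1.67-fold, adjusted p = 0.949 by edgeR), and −0.24 without WT 4 (adjusted p = 0.623). The ratio of Foxo1 to Foxo3 was 0.22 higher in A17/+ on the log2 scale (exact permutation p = 0.800, adjusted 0.800). Without WT 4 that difference was 0.82 (exact permutation p = 0.0571), and it was −0.06 without WT 3 and 0.01 without WT 2.

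Igfbp5 (chromosome 1, 72857932 to 72874884, minus strand) encodes a secreted protein that binds insulin-like growth factors and is made by muscle fibres and by connective tissue cells. It had 557, 802, 726 and 787 CPM in A17/+ 1 to 4, against 437, 391, 426 and 498 CPM in WT 1 to 4. All A17/+ libraries lay above all WT libraries, and A17/+ 1 was the lowest of its group. The level averaged 718 ± 112 CPM in A17/+ and 438 ± 44.7 CPM in WT (SD, n = 4 each). This 1.64-fold rise (log2 fold change 0.72, SE 0.16, 95% interval 1.30-fold to 2.08-fold) had an adjusted p of 0.0110 by edgeR. The group totals were 1067 counts in A17/+ and 535 in WT. The adjusted p was 0.0544 without WT 3 and 0.0554 without A17/+ 4, and it was between 0.00286 and 0.0497 without each of the other libraries.

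Mstn (chromosome 1, 53061640 to 53068079, plus strand) encodes myostatin, the secreted brake on muscle growth. It had 37.9, 25.4, 56.5 and 74.1 CPM in A17/+ 1 to 4, against 31.2, 38.8, 44.0 and 59.6 CPM in WT 1 to 4. The lowest and the highest library were both A17/+, and the WT values lay between them. The A17/+ SD was 44.0% of the mean, more than the 25.4% that counting error gives, and the WT SD was 27.7% with a counting error of 28.4%. The log2 fold change was 0.21 (interval −0.52 to 0.95, adjusted p = 0.753 by edgeR).

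Trim63 and Igfbp5 are made by muscle fibres, Igfbp5 also by connective tissue cells, and some muscle fibre markers rose too. Of 20 myofibre markers 11 rose, 9 were not called and 0 fell by edgeR. Over the 20 the log2 fold changes ran from −0.13 to 2.46, with a median of 0.66. The part of fibre content in the changes of Trim63 and Igfbp5 was not tested. At an unadjusted p under 0.05, 13 were higher and 0 lower, DESeq2 called 10 higher and limma-voom 8, and neither called any lower. The count higher was 7 without A17/+ 4, WT 2 or WT 3, and with the length trend removed 6 rose and 1 fell. Their summed level ran from 128832 to 150374 CPM in A17/+ and from 95578 to 128918 CPM in WT (exact permutation p = 0.0571), and none of the 20 was at 0. Trim63 had 51.4, 87.7, 60.0 and 66.3 counts per 100000 myofibre marker counts in A17/+ 1 to 4, against 44.5, 13.5, 37.3 and 33.6 in WT 1 to 4. The groups stayed apart on this scale (exact permutation p = 0.0286). In the edgeR fit scaled to these markers, the Trim63 log2 fold change was 0.97 with an adjusted p of 0.0503. In that fit 7 of the 20 markers were themselves still higher and 0 lower, with a median of 0.40. Scaling to their sum therefore does not level the single markers.

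Igfbp5 had 390, 623, 514 and 523 counts per 100000 myofibre marker counts in A17/+ 1 to 4, against 349, 409, 361 and 387 in WT 1 to 4. A17/+ 1 lay below WT 2 on this scale (exact permutation p = 0.0571), and the scaled edgeR fit gave 0.44 with an adjusted p of 0.112. On the same scale Fbxo32 had a log2 fold change of −0.25 (adjusted p = 0.356).

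Markers of other cell types moved as well. Of 13 fibroblast markers 11 were tested and 4 rose by edgeR and by DESeq2, and 1 by limma-voom. The count was 1 without WT 3 or WT 4, and 2 without A17/+ 3, A17/+ 4 or WT 2. Their summed level ran from 1676 to 2920 CPM in A17/+ and from 1296 to 1614 CPM in WT. Of 9 adipocyte markers only 3 were tested and all 3 rose, beside 6.34% over all genes tested. The sum over 8 detected markers was 681 to 713 CPM in A17/+ and 184 to 370 CPM in WT. Fabp4, 1 of the 3, had 55.7 to 113 CPM in A17/+ and 9.7 to 21.7 CPM in WT. It met the count filter only through the A17/+ libraries, where it was high. Of 2 Schwann and nerve markers tested 1 rose, with a sum over 8 of 178 to 237 CPM in A17/+ and 47.4 to 92.1 CPM in WT. That gene, Pmp22, had 12.9 to 32.5 CPM in WT and also met the count filter through the A17/+ libraries. Of 7 smooth muscle and pericyte markers tested 1 rose, and 0 did without A17/+ 3, A17/+ 4, WT 2 or WT 3, with a sum over 10 of 1086 to 1519 CPM in A17/+ and 948 to 1168 CPM in WT. Of 8 endothelial markers tested 0 rose or fell by edgeR, DESeq2 or limma-voom and 0 had an unadjusted p under 0.05. Their sum over 12 was 669 to 717 CPM in A17/+ and 621 to 650 CPM in WT. Of 2 macrophage markers tested 0 rose or fell by edgeR, DESeq2 or limma-voom, 1 had an unadjusted p under 0.05 and 1 rose without WT 1, and the sum over 10 was 363 to 466 CPM in A17/+ and 122 to 386 CPM in WT. Of 19 tongue epithelium markers tested 5 fell and 0 rose, and 8 fell with the length trend removed. Without A17/+ 1 there were 5 that fell and 4 that rose, and without both libraries numbered 1 there were 5 of each. The markers had a sum over 20 of 12703 to 23662 CPM in A17/+ and 17998 to 20727 CPM in WT. None of these detected markers was at 0 in all libraries, and their part in the changes of Trim63 and Igfbp5 was not tested. With an epithelium covariate the adjusted p of the 2 genes was 0.0245 and 0.00478 by edgeR. The covariate averages the log2 levels of epithelium markers whose log2 fold changes ran from −0.97 to 0.81. Because it mixes markers that moved in both directions, this fit cannot decide the part of epithelium. The summed CPM of the markers, which is another measure than the covariate, overlapped between the genotypes (exact permutation p = 0.600).

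Over the 8 libraries, the genes with levels most like Trim63 among 1051 genes with a mean of 50 or more counts were genes of muscle fibres. Tnnt3, fast troponin T, had a Pearson r of 0.97, Tnnc2, fast troponin C, 0.96, and Pygm, muscle glycogen phosphorylase, 0.95. The genes most like Igfbp5, each with r of 0.98, were Myl1, a fast myosin light chain, Ndrg2 and Ldha, a lactate dehydrogenase chain. These values describe 8 libraries that differ in genotype and depth, and the genes of a library share its depth. Each of the 6 genes rose in A17/+.

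The remaining genes of the pathway were counted in lists, some of which share genes. Over all genes tested, edgeR called 6.34% higher, 2.61% lower and 8.94% in either direction. An unadjusted p under 0.05 was held by 25.1%. Genes called higher were 586 of 5491 without A17/+ 1 and 695 of 4907 without both libraries numbered 1. They were 615 of 19857 with no filter and 538 of 10709 with limma-trend. Of 26 other muscle ubiquitin ligase genes tested, 4 rose and 0 fell by edgeR, and their median log2 fold change was 0.05. At an unadjusted p under 0.05, 8 were higher and 1 lower, and DESeq2 and limma-voom each called 3 higher and 0 lower. The median was negative with library totals (−0.06), with scaling to the myofibre markers (−0.22) with the length trend removed (−0.01) and with an epithelium covariate (−0.02). Scaling to the myofibre markers gave 1 higher and 2 lower, and an epithelium covariate gave 7 higher and 0 lower. Without A17/+ 1, 9 of 31 tested were higher and 0 lower, and limma-trend gave 9 of 40 higher and 0 lower. Without both libraries numbered 1, 7 of 27 were higher and 1 lower.

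Klhl41, a cullin adaptor that stabilises the thin filament, had 201, 268, 243 and 265 CPM in A17/+ 1 to 4, against 167, 97.0, 105 and 92.1 CPM in WT 1 to 4 (log2 fold change 1.05, adjusted p = 0.00905 by edgeR). Trim54, which encodes MuRF3, the remaining member of the MuRF family, had 134, 201, 189 and 211 CPM in A17/+ 1 to 4, against 98.1, 97.0, 84.6 and 86.7 CPM in WT 1 to 4 (0.99, adjusted p = 0.0102 by edgeR). For both genes all A17/+ libraries lay above all WT libraries. Klhl31, a related adaptor of striated muscle, rose by 0.95 on the log2 scale and Eloc, an elongin subunit of cullin ligases, by 1.30. Eloc had 10.8 to 27.1 CPM in WT and met the count filter through the A17/+ libraries. The adjusted p of Eloc, 0.0391, was over the threshold in 13 of the 22 alternatives in which it was tested. The call of Klhl41 held in all 23, and those of Trim54 and Klhl31 were lost in 2 each, among them the fit scaled to the myofibre markers.

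Ubiquitin and conjugating enzyme genes had 5 of 18 tested genes higher and 0 lower by edgeR, with a median of 0.63. At an unadjusted p under 0.05, 9 were higher and 1 lower, and DESeq2 and limma-voom each called 4 higher and 0 lower. Ubb, a polyubiquitin gene, averaged 192 ± 73.3 CPM in A17/+ and 61.7 ± 8.89 CPM in WT (SD, n = 4 each), a log2 fold change of 1.60 (adjusted p = 0.00486 by edgeR). Ubiquitin repeats are near-identical in sequence, so that the assignment of its reads is uncertain. Among the conjugating enzymes Ube2l3 rose by 2.24 (95% interval 1.26 to 3.23) and Ube2b, which works with wasting ligases in muscle, by 1.25 on the log2 scale. Ube2l3 had 26.8, 50.8, 39.6 and 45.6 CPM in A17/+ 1 to 4, against 2.23, 12.9, 10.2 and 10.8 CPM in WT 1 to 4. With WT values this low, Ube2l3 met the count filter only through the A17/+ libraries, and it was tested in only 18 of the 23 alternatives. Ube2r2, another of the genes that rose, was named after its value was seen (1.77, adjusted p = 0.0107). The median stayed positive under every scaling tried, the lowest being 0.36 with the myofibre markers, where 5 rose and 1 fell.

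**Figure D4:**
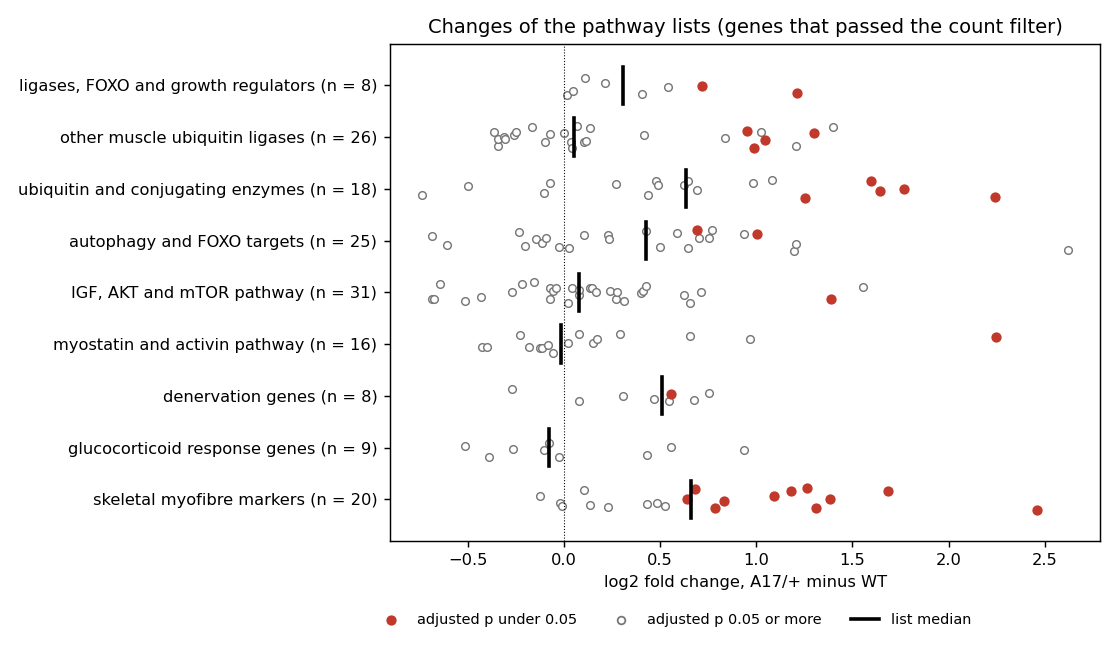
Log2 fold change (A17/+ minus WT) of the genes of each pathway list that passed the count filter, with 1 point per gene, red where the adjusted p was under 0.05, and a black bar at the list median. Ubiquitin and conjugating enzymes (median 0.63) and myofibre markers (0.66) lie to the right of 0, and myostatin pathway (−0.02) and glucocorticoid response genes (−0.08) are centred near 0.

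Autophagy genes and other FOXO targets had 2 of 25 tested genes higher and 0 lower by edgeR, with a median of 0.43. The share called higher was 8%, against 6.34% over all genes tested, where 8.94% were called in either direction. The summed level of 37 genes ran from 2526 to 3330 CPM in A17/+ and from 1930 to 1983 CPM in WT. At an unadjusted p under 0.05, 7 were higher and 0 lower, beside a share of 25.1% over all genes. DESeq2 called 3 higher and limma-voom 2, and neither called any lower. Txnip, an inhibitor of thioredoxin, averaged 149 ± 29.1 CPM in A17/+ and 72.9 ± 8.76 CPM in WT (SD, n = 4 each), a log2 fold change of 1.00 (adjusted p = 0.0110 by edgeR). Sod2, the mitochondrial superoxide dismutase, rose by 0.69 (adjusted p = 0.0175). Neither gene is part of the autophagy machinery. The count higher was 0 with scaling to the myofibre markers. It was 8 of 29 without A17/+ 1 and 8 of 25 without both libraries numbered 1. Calls over all genes also grew in these fits, to 586 of 5491 and 695 of 4907 higher. In this list the count higher was 1 without A17/+ 3 and without A17/+ 4, and with the length trend removed 4 rose and 1 fell.

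In the insulin-like growth factor, AKT and mTOR pathway 1 of 31 tested genes rose and 0 fell by edgeR, with a median of 0.08, and 3 were higher and 3 lower at an unadjusted p under 0.05. The gene was Grb14, an adaptor that restrains the insulin receptor, with 109 ± 19.8 CPM in A17/+ and 38.5 ± 19.9 CPM in WT (SD, n = 4 each; log2 fold change 1.39, adjusted p = 0.0103 by edgeR). Its call held in all 23 alternatives. DESeq2 called 2 higher and limma-voom 1, and neither called any lower. With library totals 1 rose and 2 fell, with the length trend removed 2 rose and 4 fell, and without both libraries numbered 1 it was 4 and 2. The median was −0.04 with library totals and −0.20 with the myofibre markers.

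In the myostatin and activin pathway 1 of 16 tested genes rose and 0 fell by edgeR, with a median of −0.02. The share called higher was 6.25%, against 6.34% over all genes tested, where 8.94% were called in either direction. At an unadjusted p under 0.05, 2 were higher and 0 lower. DESeq2 called 1 higher and limma-voom 0, and neither called any lower. The gene was Dcn, which encodes decorin, a matrix proteoglycan that binds myostatin and is also a fibroblast marker, with 386 ± 182 CPM in A17/+ and 79.4 ± 27.6 CPM in WT (SD, n = 4 each; log2 fold change 2.24, adjusted p = 0.0123 by edgeR). Its adjusted p was over the threshold without WT 4 and with limma-voom. The median lay between −0.31 and 0.12 over the alternatives, in which the number of genes tested varied.

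Denervation also raises MuRF1 in muscle, through the factor myogenin. The list of denervation genes held 20, of which 19 were detected and 8 were tested. Myog, which encodes myogenin, and the acetylcholine receptor genes of the list were not among those tested. Of the 8 tested 1 rose and 0 fell by edgeR, with a median of 0.51. At an unadjusted p under 0.05, 2 were higher and 0 lower. With DESeq2 and with limma-voom 0 were called. The gene was Mef2c, a muscle transcription factor, with a log2 fold change of 0.56 (adjusted p = 0.0416 by edgeR), and its call was lost in 16 of 23 alternatives.

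Of 9 glucocorticoid response genes tested 0 rose or fell with edgeR, DESeq2 or limma-voom, and 2 were higher and 1 lower at an unadjusted p under 0.05. Klf9, a glucocorticoid-induced repressor, had a log2 fold change of 0.55 (adjusted p = 0.0540 by edgeR), and the kinase gene Sgk1 had −0.51 (adjusted p = 0.0784). Without both libraries numbered 1, 4 of 12 tested were higher and 1 lower, and with no filter 4 of 16 were higher and 0 lower. The median lay between −0.36 and 0.28 over the alternatives, in which the number of genes tested varied.

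**Figure D5:**
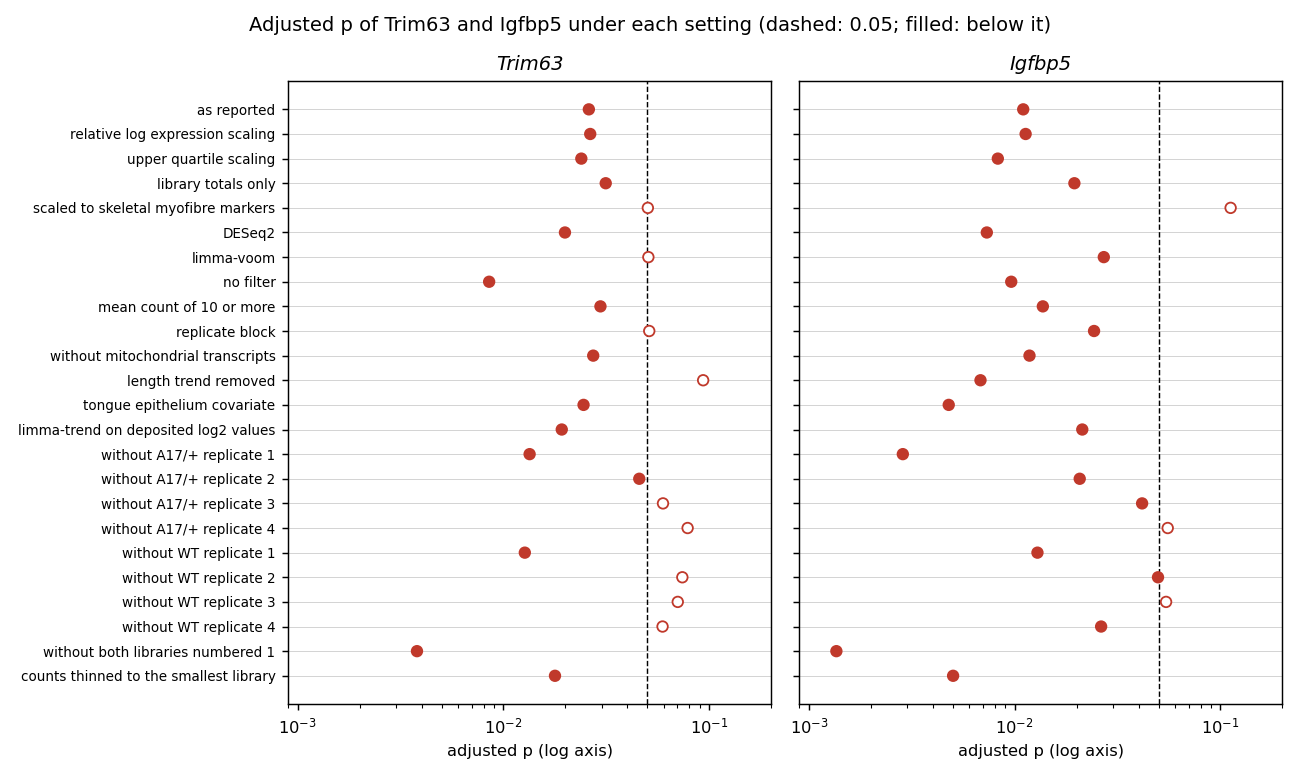
Adjusted p of Trim63 and Igfbp5 (log axis) under the reported settings and 23 alternatives, filled where below the dashed line at 0.05. Trim63 is above the line in 9 alternatives, up to 0.0934, and Igfbp5 in 3, up to 0.112.

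Under the 23 alternatives the Trim63 log2 fold change stayed between 0.83 and 1.62 and that of Igfbp5 between 0.44 and 0.84. Trim63 was over the threshold in 9 alternatives: the 5 libraries above, scaling to the myofibre markers (adjusted p = 0.0503), limma-voom (0.0506), the replicate block (0.0511) and removal of the length trend (0.0934). With the length trend removed its log2 fold change was 0.83, and its longest annotated transcript, at 1886 nt, is the shortest of the 10 genes. Igfbp5, at 6006 nt, had 0.76 (adjusted p = 0.00682) in that fit. Without both libraries numbered 1 the 2 changes were 1.62 and 0.82, with adjusted p of 0.00380 and 0.00136 by edgeR.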

How the data were processed

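RNA was measured in 8 tongue libraries. Per the submitters' processing notes, the tools were STAR 2.7.5a, HTSeq, cutadapt 2.10 and UMI-tools 1.1.1, with the genome build mm10, and the settings, strand and annotation release are not given in the sources used here. The authors deposited raw counts per Ensembl gene, which were analysed, and log2 values per library, used in an alternative. Symbols and positions came from GENCODE M21 for mm10, which named 19677 of 19857 genes. Genes passing filterByExpr (minimum count 10, total 15) were scaled by TMM and fitted with edgeR 4.0.16 (robust quasi-likelihood, genotype only, R 4.3.3). Alternatives used DESeq2 1.42.0 and limma 3.58.1. Single measures had two-sided exact permutation tests, over 70 assignments with all 8 libraries and fewer where a library was left out. Genes and ratios were tested on log2 of (CPM + 1) unless another pseudocount is named. Marker sums were tested on the summed CPM itself. Counts relative to the myofibre markers were tested on a log2 scale with a smaller constant added.

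The 10 genes and all lists were chosen with earlier results of these data known. Named were the 10 genes and, per list, up to 4 passing genes with the smallest p, or up to 2 as values only, and for each of the 10 that passed, the 3 genes with the highest r. 1 gene that this rule names is not reported here. Between same-numbered libraries the deviations from the group means had r of −0.16 to 0.07, and the numbers were not used as pairs. A17/+ 1 and WT 1 nevertheless had the highest values on the second principal component (18.4 and 19.6). The fit was tested on simulated data. Annotated genes overlap Trim55, Fbxo32 and Foxo1 with at most 19 counts in the table, and others overlap Asb2, Cblb and Foxo1 that were not analysed here.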

Additional observations from a re-analysis of the deposited data

Results flagged for a closer look

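Within the groups of 4 libraries, 88 sets of values were screened for a single library far from the others, which chance marks in about 1 of 20 sets, and 3 were found. The summed level of autophagy genes and other FOXO targets was 3330 CPM in A17/+ 2, against 2526 to 2596 CPM in the other A17/+ libraries. Klhl41 had 167 CPM in WT 1, against 92.1 to 105 CPM in the other WT libraries. The lingual salivary gland markers summed to 2064 CPM in WT 1, against 0 to 10.2 CPM in the other WT libraries.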

How the results depend on the processing

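No alternative made any of the 10 genes lower at the threshold. The 2 genes that rose became 0 with scaling to the myofibre markers, and 1 with limma-voom, with the replicate block and with the length trend removed, and 0 to 2 when 1 library was left out. The 321 genes higher became 208 with myofibre scaling, 145 with limma-voom, 615 with no filter, 538 with limma-trend on the deposited log2 values, 695 without both libraries numbered 1 and 172 to 586 with 1 library left out. The 132 genes lower became 289 with library totals, 469 with myofibre scaling, 83 with limma-voom, 238 with no filter, 257 with the length trend removed, 259 with limma-trend, 330 without both libraries numbered 1 and 38 to 383 with 1 library left out. The replicate block gave 311 higher and 99 lower, and the libraries share only a number. Library totals moved the median of all genes to −0.11 and myofibre scaling to −0.27.

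The log2 fold changes near 0 changed sign without passing the test. Fbxo32 had −0.09 with library totals, −0.25 with myofibre scaling, −0.03 with no filter, −0.11 with the epithelium covariate, −0.08 with limma-trend, −0.12 without both libraries numbered 1, and −0.16 to 0.07 with 1 library left out. Cblb had −0.01 with library totals, −0.15 with myofibre scaling and −0.10 to 0.26 with 1 library left out. Foxo3 had −0.08 with library totals, −0.24 with myofibre scaling, −0.01 with no filter and −0.24 to 0.16 with 1 library left out, and Mstn had −0.08 with myofibre scaling and −0.08 to 0.42. The difference in the ratio of Trim63 to Fbxo32 was 1.15 with a pseudocount of 10 and 1.02 to 1.62 with 1 library left out. For Foxo1 over Foxo3 it was −0.06 to 0.82. Counts thinned to the smallest library, an alternative added after the data were seen, kept Trim63 (1.34) and Igfbp5 (0.84) past the threshold. The cause of these shifts was not tested. Fbxo30 and Foxo1, with 2 to 18 and 3 to 10 counts per library, are limited by depth.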
